A study of Mus musculus with 14 samples.

Results

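The effect of PSGL1lo status on gene expression was compared between lung and liver in donor CD4+ T cells from mice with chronic graft-versus-host disease (cGVHD). PSGL1, the P-selectin glycoprotein ligand, is the product of Selplg and the surface protein by which the cells had been sorted into a low (PSGL1lo) and a high (PSGL1hi) fraction. The members are the 8 liver and lung libraries of the 14 in the series, 2 each of cGVHD lung PSGL1lo, lung PSGL1hi, liver PSGL1lo and liver PSGL1hi cells, chosen by their labels. The quantity described is the log2 ratio of PSGL1lo to PSGL1hi in lung minus the same ratio in liver, called the difference of effects here. A positive value means that PSGL1lo cells stood higher, relative to PSGL1hi cells of the same organ, in lung than in liver. All 25017 genes of the table entered, of which 13780 had enough counts to be tested. All 8 libraries came from BALB/c recipients of C57BL/6 (B6) T-cell-depleted bone marrow together with B6 splenocytes, and organs were taken 30 days after transplantation. Whether replicate libraries derive from separate or pooled animals is not stated in the labels. The p-values thus measure the spread between replicate libraries, estimated over all 14 of the series, which may be technical.

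PSGL1 binds selectins once its sugars have been modified, and it also carries inhibitory signals in T cells. T follicular helper (Tfh) cells, which lower PSGL1, help B cells through interleukin-21 and CD40 ligand under the control of the transcription factor Bcl6. Outside lymphoid organs, CD4+ T cells with related helper functions can stay in the tissue. NF-kappaB, AP-1 and Nr4a factors are switched on within a short time of antigen receptor or cytokine signals, and also when tissue is taken apart to release cells.

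The 8 libraries held 22380631 to 33532595 counts, so that a gene without reads could still have had up to 3 counts, or 0.0859 to 0.135 CPM (TMM-scaled counts relative to library size), from counting error alone. The 2 liver PSGL1lo libraries lay farthest apart, with a biological coefficient of variation at 12.3%. It was 8.49% in lung PSGL1lo, 6.02% in lung PSGL1hi and 3.8% in liver PSGL1hi. Liver PSGL1lo replicate 1 had the most counts and the fewest genes detected, 14036 against 14985 to 15371 in the other 7. Its library name ends in index 18, while the others end in 44 to 50. The names also carry the number 7 for lung PSGL1lo and liver PSGL1hi and 8 for lung PSGL1hi and liver PSGL1lo, with no meaning given. The difference of effects sets the libraries of number 7 against those of number 8, so the difference and whatever this number stands for cannot be told apart. Cd4 averaged 2341 to 2629 CPM in the 4 groups. Rn45s, the ribosomal RNA precursor and a sign of how completely ribosomal RNA was removed, had 13410 and 12649 CPM in lung PSGL1lo, 7613 and 6079 CPM in lung PSGL1hi, 3584 and 6043 CPM in liver PSGL1lo and 8627 and 6871 CPM in liver PSGL1hi. It was thus highest in lung PSGL1lo, and its part in the results below was not tested.

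The PSGL1lo effect differed between the tissues for 823 of 13780 genes (5.97% called by edgeR's quasi-likelihood test at an adjusted p under 0.05), with a difference above 0 for 287 (2.08%) and below 0 for 536 (3.89%). With library totals in place of TMM scaling the split was 404 above and 362 below 0, so the excess of negative differences depended on the scaling. All 823 kept their sign when any of the 8 libraries was left out, and 355 also kept their call each time. The count fell to 520 without lung PSGL1lo replicate 1, 522 without lung PSGL1hi replicate 2, 487 without liver PSGL1hi replicate 1 and 475 without liver PSGL1hi replicate 2. It was 1320 without liver PSGL1lo replicate 2 and 885 without liver PSGL1lo replicate 1. When only the 8 liver and lung libraries were fitted, 575 genes were called, so the count also depended on the spread in the other libraries. Against a 1.5-fold difference, 107 genes (0.776%) passed, 54 above and 53 below 0.

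In most of the 823 genes the lung showed the larger separation of the fractions. PSGL1lo and PSGL1hi cells differed in lung for 33% of all genes tested (12.9% higher and 20.1% lower in PSGL1lo) and in liver for 20.8% (8.5% higher and 12.3% lower). These shares, with 2.08% above and 3.89% below 0 for the difference of effects, are the background for the gene lists below. For counts by sign alone, only the median over all genes tested, -0.01, is given. Of the 823, 259 moved the same way in both tissues and farther in lung, against 32 that moved the same way and farther in liver. A further 394 were called in lung and not in liver, and 93 in liver and not in lung. In 37 the effects were called with opposite signs, and 8 were called in neither tissue. Over the 8552 genes with a mean of at least 10 CPM, the median size of the effect was 0.20 on the log2 scale in lung and 0.15 in liver, and the effects in the tissues had a Pearson r of 0.74, which is a description across genes that share libraries.

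**Figure D1:**
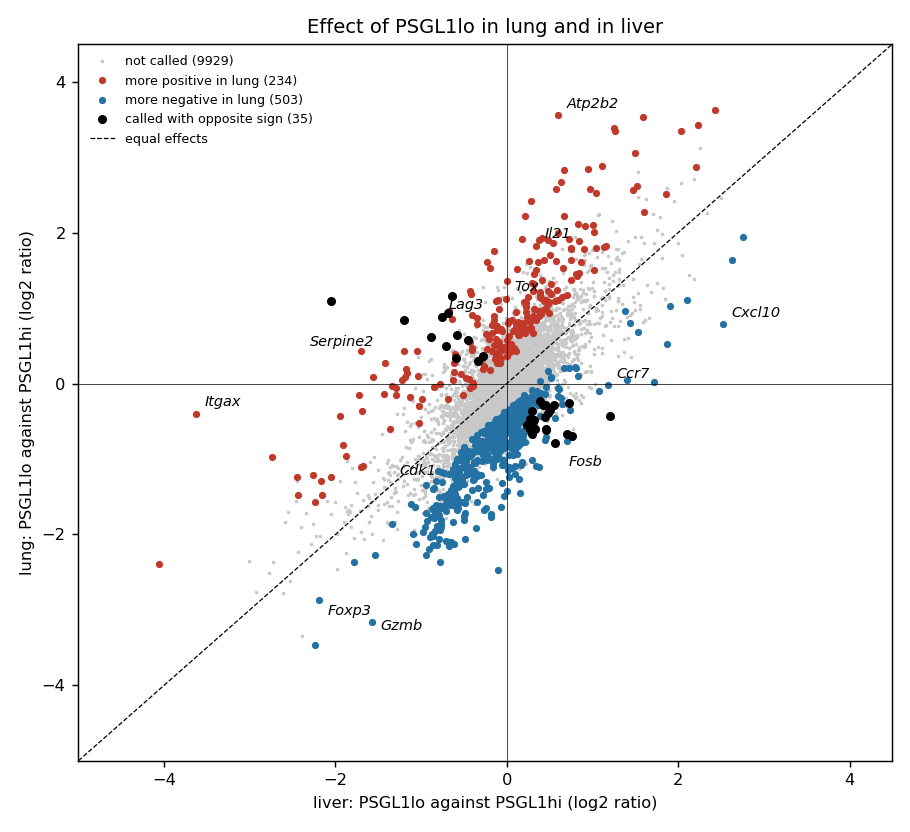
Log2 ratio of PSGL1lo to PSGL1hi in lung (vertical axis) against that in liver (horizontal axis) for the 10701 genes with at least 1 CPM in each of the 4 groups. Red and blue points are genes whose effects differed, black points the 35 called with opposite signs, and the dashed line marks equal effects. Most blue points lie below 0 on the lung axis, and Il21, Tox and Atp2b2 lie above the line.

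Selplg itself was lower in PSGL1lo cells of both organs and more so in lung. It had 383 and 456 CPM in lung PSGL1lo against 925 and 994 CPM in lung PSGL1hi, and 612 and 540.2 CPM in liver PSGL1lo against 909 and 937 CPM in liver PSGL1hi. The groups did not overlap within either organ, and the PSGL1hi groups of both organs did. The log2 ratio was -1.19 ± 0.09 in lung and -0.68 ± 0.09 in liver (SE), a difference of -0.51 ± 0.12 (adjusted p = 0.014, edgeR). That call was lost without lung PSGL1lo replicate 1 (-0.39), lung PSGL1hi replicate 2 (-0.46) or liver PSGL1hi replicate 1 (-0.49). The sorted fractions thus lay farther apart in Selplg mRNA in lung, and how much of the other differences goes with this was not tested. Of the 15 selectin ligand synthesis genes 4 were called with a negative difference and 0 with a positive one, while 8 lay above 0 and 7 below 0 by sign alone (median 0.05). Without lung PSGL1lo replicate 1 or liver PSGL1hi replicate 1 the 4 became 1. Besides Selplg these were St3gal4, Tpst2 and B4galt1, a galactosyltransferase (-0.62 ± 0.10, adjusted p = 0.00021).

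Tfh and B cell help genes were called in both directions. Of 28 tested members, 9 were called with a positive and 5 with a negative difference, and 18 lay above 0 by sign alone, with a median of 0.14 against -0.01 over all genes tested. The 5 became 3 without either liver PSGL1hi library and with library totals in place of TMM scaling. Il21, the B cell help cytokine, had 71.4 and 68.1 CPM in lung PSGL1lo, 21.6 and 17.7 CPM in lung PSGL1hi, 97.8 and 117 CPM in liver PSGL1lo and 86.2 and 83.2 CPM in liver PSGL1hi. The lung fractions lay far apart and the liver fractions close together without overlap, with log2 ratios of 1.83 ± 0.10 and 0.34 ± 0.09 and a difference of 1.49 ± 0.13 (adjusted p = 5.4e-07). Tox, a nuclear factor of chronically stimulated T cells, had 579 and 546 CPM in lung PSGL1lo against 251 and 266 CPM in lung PSGL1hi. In liver it had 404 and 410.1 CPM in PSGL1lo against 402 and 416 CPM in PSGL1hi cells, where the groups overlapped (difference 1.13 ± 0.10, adjusted p = 5.4e-07). Angptl2, an angiopoietin-like secreted protein, had 101 and 81.3 CPM in lung PSGL1lo and 19.8 and 19.4 CPM in lung PSGL1hi. The liver values were 83.8 and 83.7 CPM in PSGL1lo and 53.9 and 51.4 CPM in PSGL1hi (difference 1.54 ± 0.13, adjusted p = 4.3e-07). Gpm6b, a membrane glycoprotein, Tox2, a relative of Tox, and the inhibitory ligand gene Cd200 had differences of 1.61 ± 0.19, 0.77 ± 0.15 and 0.75 ± 0.14.

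Other called members of the list, Icos, Cd40lg, Bcl6 and Tcf7 among them, had negative differences. Icos, the inducible costimulator that Tfh cells depend on, had 526 and 497 CPM in lung PSGL1lo and 786 and 764 CPM in lung PSGL1hi, but 307 and 364 CPM in liver PSGL1lo and 241 and 248 CPM in liver PSGL1hi. It was lower in PSGL1lo cells of lung and higher in those of liver, without overlap (difference -1.05 ± 0.10, adjusted p = 1.7e-06). Cd40lg, the CD40 ligand gene, had log2 ratios of -0.47 ± 0.08 in lung and 0.27 ± 0.08 in liver (difference -0.74 ± 0.12, adjusted p = 0.00027). Bcl6, the Tfh master regulator, was higher in PSGL1lo cells of both organs, by 0.68 ± 0.11 in lung and 1.53 ± 0.12 in liver (difference -0.85 ± 0.16, adjusted p = 0.0017). Its levels were 126 and 104 CPM in lung PSGL1lo, 79.0 and 64.2 CPM in lung PSGL1hi, 45.5 and 46.1 CPM in liver PSGL1lo and 15.6 and 16.1 CPM in liver PSGL1hi. The ratio was smaller in lung, where both fractions lay above both of liver. In CPM, the gap between the fractions was larger in lung, 43.4 against 30.0 CPM in liver, so the sign of the Bcl6 difference holds for ratios only. The same was true of Tcf7, which encodes the memory-associated factor TCF-1 (difference -0.42 ± 0.10, adjusted p = 0.017). That call was lost without lung PSGL1lo replicate 1 (-0.32), lung PSGL1hi replicate 2 (-0.34), liver PSGL1hi replicate 1 (-0.43) or liver PSGL1hi replicate 2 (-0.41).

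For the follicle-homing receptor gene Cxcr5 the log2 ratio was 2.21 ± 0.10 in lung and 1.78 ± 0.09 in liver, and the difference of 0.43 ± 0.13 did not pass (adjusted p = 0.068). It passed without lung PSGL1hi replicate 2 (0.59) or liver PSGL1lo replicate 1 (0.49). The interleukin-6 receptor gene Il6ra (0.02 ± 0.28) and the inhibitory receptor gene Pdcd1 (0.12 ± 0.10) did not pass either. Among 18 inhibitory receptor and exhaustion genes, 7 were called with a positive and 2 with a negative difference, and by sign alone 12 lay above 0 and 6 below 0. Lag3, which encodes an inhibitory receptor of the CD4 family, had 219 and 193 CPM in lung PSGL1lo against 135 and 129 CPM in lung PSGL1hi. In liver cells there were 244 and 235 CPM in PSGL1lo against 347 and 370.3 CPM in PSGL1hi. Its effects had opposite signs, 0.64 ± 0.08 in lung and -0.58 ± 0.07 in liver (difference 1.22 ± 0.11, adjusted p = 4.8e-07). Nrn1, which encodes neuritin, had a difference of 2.04 ± 0.23. Tox and Cd200 are members of this list as well.

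**Figure D2:**
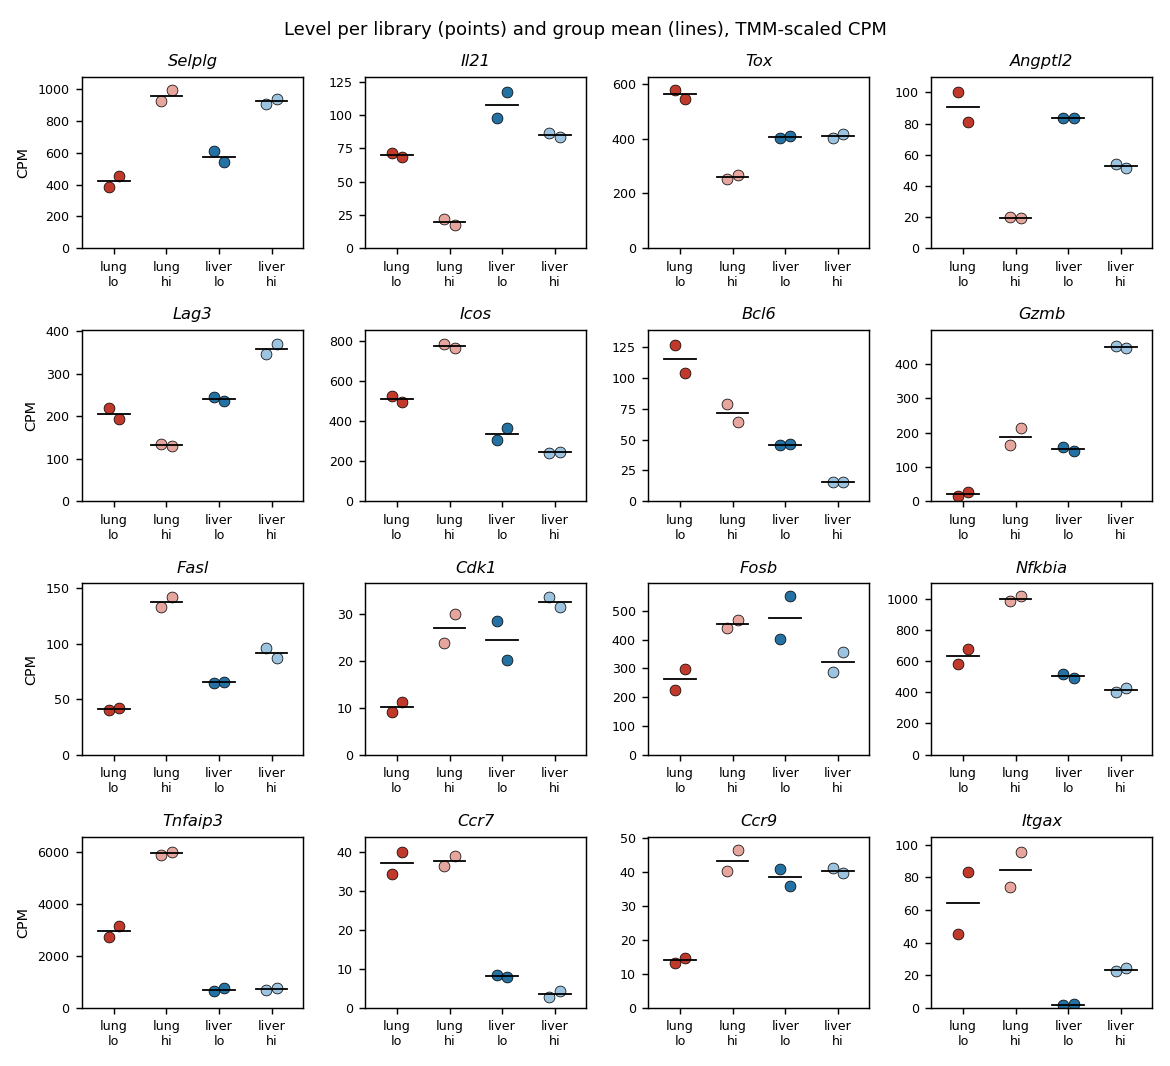
CPM in each library (points) with the group mean (lines) for 16 genes, in lung PSGL1lo, lung PSGL1hi, liver PSGL1lo and liver PSGL1hi cells, each axis from 0. Il21, Tox and Angptl2 are set apart between the fractions in lung more than in liver, Icos, Fosb and Nfkbia change order between the organs, and Bcl6 is higher in lung in both fractions.

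Cell cycle genes were lower in PSGL1lo cells of both organs and more so in lung. All 26 tested members had a difference below 0, 16 of them called, and the list median was -0.58. In lung 25 of the 26 were lower in PSGL1lo cells and in liver 23, with medians of -1.19 and -0.51. Cdk1, the kinase that drives mitotic entry, had 9.2 and 11.2 CPM in lung PSGL1lo, 23.9 and 30.2 CPM in lung PSGL1hi, 28.6 and 20.3 CPM in liver PSGL1lo and 33.7 and 31.5 CPM in liver PSGL1hi (difference -1.01 ± 0.20, adjusted p = 0.0025). The lung PSGL1lo libraries were the lowest of the 8, and the 2 liver PSGL1lo libraries lay apart from each other. The survivin gene Birc5 (-1.45 ± 0.23) and the cyclin gene Ccnb2 (-1.05 ± 0.19) also had their lowest values in lung PSGL1lo, as did Mki67, the Ki-67 antigen gene (-0.72 ± 0.10). Cdc6, which licenses replication origins, and the cell cycle transcription factor Mybl2 were among the leading negative differences (-1.58 ± 0.18 and -1.58 ± 0.24). Of the 16 calls, 7 held whichever library was left out, and the count was 10 without lung PSGL1lo replicate 1 and 7 without lung PSGL1hi replicate 2.

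In the Th1 and cytotoxic list 8 of 24 members were called with a negative and 2 with a positive difference, and by sign alone 16 lay below 0 and 8 above 0 (median -0.18). The 2 became 1 without any library other than lung PSGL1lo replicate 2, liver PSGL1lo replicate 2 and liver PSGL1hi replicate 2, and 0 without the last. Gzmb, the granzyme B gene, had 15.2 and 27.1 CPM in lung PSGL1lo, 164 and 213 CPM in lung PSGL1hi, 157 and 146 CPM in liver PSGL1lo and 452 and 448 CPM in liver PSGL1hi. PSGL1lo cells were lower in both organs, by a log2 ratio of -3.16 ± 0.16 in lung and -1.57 ± 0.14 in liver (difference -1.59 ± 0.20, adjusted p = 3.2e-05). In CPM the gap was larger in liver, -299 against -168 in lung, so this difference too holds for ratios only. Fasl, the death ligand gene, had 39.8 and 41.7 CPM in lung PSGL1lo, 133 and 142 CPM in lung PSGL1hi, 64.4 and 65.7 CPM in liver PSGL1lo and 95.9 and 87.4 CPM in liver PSGL1hi (difference -1.26 ± 0.11, adjusted p = 5.4e-07). Its gap was larger in lung on both scales. Tbx21, which encodes the Th1 factor T-bet, was lower in lung PSGL1lo cells (-0.76 ± 0.10) and not called in liver (0.05 ± 0.10, adjusted p = 0.78), with a difference of -0.81 ± 0.15. The interleukin-12 receptor gene Il12rb2 (-0.78 ± 0.15) also differed, while the interferon gamma gene Ifng did not pass (-0.10 ± 0.10, adjusted p = 0.68).

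Of 12 Th2 genes 3 were called with a negative and 0 with a positive difference, among them Il4ra, the interleukin-4 receptor gene (-1.13 ± 0.11), which was lower in lung PSGL1lo cells (-1.102 ± 0.08) and not called in liver (0.03 ± 0.08). Gata3, the Th2 lineage factor, was another (-0.47 ± 0.12, adjusted p = 0.017), lost without lung PSGL1lo replicate 2 (-0.37), lung PSGL1hi replicate 1 (-0.45), lung PSGL1hi replicate 2 (-0.49) or liver PSGL1hi replicate 1 (-0.39). Of 10 Th17 genes only the nuclear receptor gene Rora was called (-1.02 ± 0.11), while 5.97% of all genes tested were called. By sign alone 8 of the 10 lay above 0 and 2 below 0. In the regulatory T cell list 3 of 17 members were called with a positive and 4 with a negative difference. The 3 became 5 without lung PSGL1lo replicate 2 or liver PSGL1lo replicate 1 and 1 without liver PSGL1hi replicate 2. Foxp3, its lineage factor, was lower in PSGL1lo cells of both organs (-2.86 ± 0.13 in lung and -2.19 ± 0.14 in liver). The Foxp3 difference of -0.68 ± 0.19 was near the threshold (adjusted p = 0.037) and held without liver PSGL1lo replicate 1 or liver PSGL1hi replicate 2, while it was lost without any of the other 6 libraries (-0.69 to -0.56).

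Of 27 AP-1 and immediate early genes, 18 were lower and 2 higher in PSGL1lo cells of lung (all genes tested: 20.1% and 12.9%). In liver 7 were lower and 8 higher (all genes tested: 12.3% and 8.5%). The difference was called negative for 13 and positive for 2, and by sign alone 21 lay below 0 and 6 above 0 (median -0.42). The 13 became 8 without lung PSGL1hi replicate 2 and 7 without liver PSGL1hi replicate 1. Fosb, an AP-1 subunit, had 225 and 299 CPM in lung PSGL1lo, 441 and 468 CPM in lung PSGL1hi, 402 and 552 CPM in liver PSGL1lo and 286 and 358 CPM in liver PSGL1hi. It was lower in PSGL1lo cells of lung and higher in those of liver, without overlap (difference -1.36 ± 0.18, adjusted p = 6.1e-05). Junb (-0.73 ± 0.10) and Jun (-0.68 ± 0.15) encode AP-1 subunits too, and Ier5 (-0.93 ± 0.10) and Ier2 (-0.90 ± 0.16) are immediate early genes. Nr4a1, a nuclear receptor gene induced by antigen receptor signals, had 693 and 653 CPM in lung PSGL1lo against 1051 and 925 CPM in lung PSGL1hi. The liver values were 102 and 116 CPM in PSGL1lo and 99.3 and 109 CPM in PSGL1hi (difference -0.62 ± 0.13, adjusted p = 0.0034), so its lung fractions separated and its liver fractions overlapped. Fos did not pass (-0.42 ± 0.15, adjusted p = 0.1). It passed without lung PSGL1lo replicate 2 (-0.65) or liver PSGL1lo replicate 1 (-0.50). The 2 called positive were Atf3 and Egr2, which turned their sign in CPM and did not hold in every fit that left out a library. Among 14 MAP kinase feedback genes 4 were called with a negative difference and 1, lost without most of the 8 libraries, with a positive one. By sign alone 8 lay below 0 and 6 above 0. The negative ones were led by the phosphatase genes Dusp5 (-0.87 ± 0.14), Dusp2 (-0.85 ± 0.13) and Dusp10 (-0.79 ± 0.11).

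In the NF-kappaB list 9 of 21 members were called with a negative and 0 with a positive difference, and by sign alone 18 lay below 0 and 3 above 0 (median -0.41). Of the calls, 6 of the 9 held whichever library was left out. In liver 10 members were higher in PSGL1lo cells and 0 lower (all genes tested: 8.5% and 12.3%). In lung 2 were higher and 6 lower (all genes tested: 12.9% and 20.1%). Nfkbia, which encodes the inhibitor IkappaB alpha and is itself an NF-kappaB target, had 583 and 681 CPM in lung PSGL1lo, 986 and 1016 CPM in lung PSGL1hi, 520.0 and 493 CPM in liver PSGL1lo and 403 and 426 CPM in liver PSGL1hi. Its order was reversed between the organs (difference -0.95 ± 0.10, adjusted p = 2.5e-06). Tnfaip3, the gene of the feedback inhibitor A20, had 2749.7 and 3149.6 CPM in lung PSGL1lo and 5912 and 6024 CPM in lung PSGL1hi. In liver it had 629 and 751 CPM in PSGL1lo and 680.5 and 755 CPM in PSGL1hi, which overlapped (difference -0.96 ± 0.11, adjusted p = 9.9e-06). Nfkbie (-0.86 ± 0.11), Nfkbiz (-0.96 ± 0.11) and the survival gene Birc3 (-0.88 ± 0.10) had negative differences as well. Since these genes moved together, their promoters were searched for the NF-kappaB consensus, a named motif, on both strands. It was found in 5 of the 7 called members that have a promoter window in the RefSeq table (Tnfaip3, Nfkbia, Nfkbie, Nfkb2 and Tnip1) and in 8 of the 18 tested members with a window, while 8.18% of the 27025 windows hold it. These are matches of letters and not binding sites. The list was made of NF-kappaB subunits and feedback genes. A share above that of all windows can follow from that choice, and says nothing about the difference of effects. The windows of the 3 with the largest differences among these 5 follow, each from 250 bases before to 50 after the annotated start, on the gene's strand and in GRCm38 coordinates (the counts were made on mm9), with the matches in capitals. The match in Nfkbia begins 29 bases before the start and that in Nfkbie 106 bases before it, while Tnfaip3 has matches that begin 125 and 12 bases before its start.
Tnfaip3 (chr10:19015361-19015660, minus strand): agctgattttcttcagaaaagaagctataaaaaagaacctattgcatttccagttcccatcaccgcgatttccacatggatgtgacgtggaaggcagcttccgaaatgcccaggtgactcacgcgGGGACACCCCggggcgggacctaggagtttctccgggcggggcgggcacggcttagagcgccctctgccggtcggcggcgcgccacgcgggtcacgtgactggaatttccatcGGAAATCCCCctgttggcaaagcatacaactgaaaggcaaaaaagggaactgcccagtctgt
Nfkbia (chr12:55492598-55492897, minus strand): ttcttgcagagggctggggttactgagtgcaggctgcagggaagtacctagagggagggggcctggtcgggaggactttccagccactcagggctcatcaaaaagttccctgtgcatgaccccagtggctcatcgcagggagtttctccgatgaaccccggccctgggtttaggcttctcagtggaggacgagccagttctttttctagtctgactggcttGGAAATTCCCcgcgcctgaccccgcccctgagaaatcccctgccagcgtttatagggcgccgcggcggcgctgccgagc
Nfkbie (chr17:45555450-45555749, plus strand): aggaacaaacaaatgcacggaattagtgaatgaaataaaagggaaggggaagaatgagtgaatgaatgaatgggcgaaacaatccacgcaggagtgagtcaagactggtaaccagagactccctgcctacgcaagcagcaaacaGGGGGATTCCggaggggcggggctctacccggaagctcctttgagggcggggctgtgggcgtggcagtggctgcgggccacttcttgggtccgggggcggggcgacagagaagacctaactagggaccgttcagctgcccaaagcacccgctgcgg

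The other motifs were found in a smaller share of the called members. The heat shock element was in the window of 1 of 6 called chaperone genes, Hsph1. It was in 4 of the 21 tested chaperone genes with a window and in 0.529% of all windows. The cAMP response element TGACGTCA was in 2 of 11 called immediate early genes, Btg2 and Ppp1r15a. It was in 2 of the 22 tested ones with a window and in 1.88% of all windows. The AP-1 site TGANTCA was in 0 of those 11, in 0 of the 22 and in 7.93% of all windows. The sterol element TCACNCCAC was in 0 of 2 called and 0 of 13 tested cholesterol genes with a window and in 1.22% of all.

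Hspa1b, an inducible Hsp70 gene of the heat shock chaperone list, differed far more between the organs than between the fractions. It had 1461 and 1625 CPM in lung PSGL1lo, 2117 and 1926 CPM in lung PSGL1hi, 7.79 and 10.02 CPM in liver PSGL1lo and 7.5 and 6.96 CPM in liver PSGL1hi. Of 26 list members 6 were called with a negative and 0 with a positive difference, and by sign alone 22 lay below 0 and 4 above 0 (median -0.22). In all, 0 of the 6 held in all 8 fits that left out a library. With library totals in place of TMM scaling the count was 2, and it was 0 without lung PSGL1lo replicate 1 or lung PSGL1hi replicate 1. For Hspa1b the difference was -0.67 ± 0.16 (adjusted p = 0.013), lost without lung PSGL1lo replicate 1 (-0.60), lung PSGL1hi replicate 1 (-0.61), liver PSGL1lo replicate 2 (-0.50) or liver PSGL1hi replicate 2 (-0.62). For Hspa1a, another Hsp70 gene, it was -0.60 ± 0.18 (adjusted p = 0.046, edgeR), a call that did not hold in every fit that left out a library. For the co-chaperone gene Dnajb1 it was -0.52 ± 0.12 (adjusted p = 0.0086), lost without lung PSGL1lo replicate 1 (-0.43) or lung PSGL1hi replicate 1 (-0.37).

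**Figure D3:**
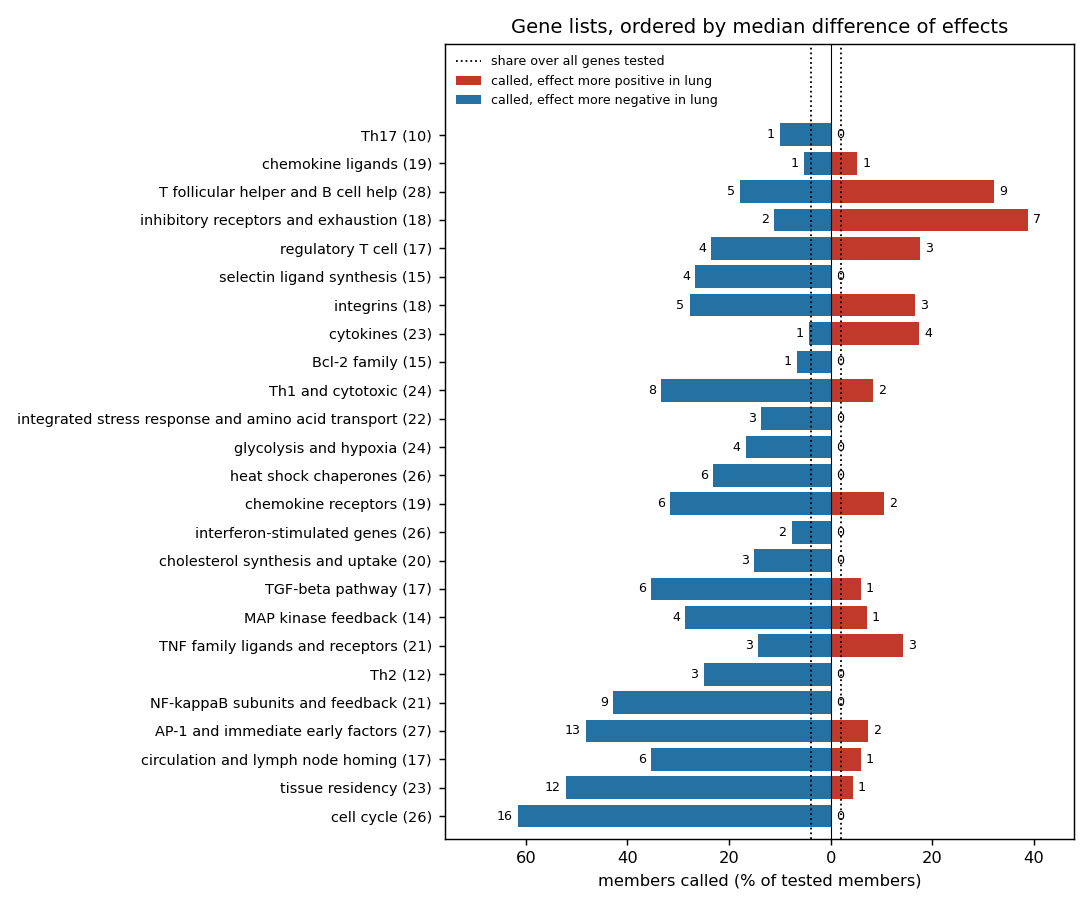
Share of each gene list's tested members (numbers in brackets) whose PSGL1lo effect was called more positive in lung (red, right) or more negative in lung (blue, left), with counts beside the bars, ordered by the list's median difference. The dotted lines mark the shares over all genes tested, 2.08% and 3.89%. The cell cycle list has 16 members to the left and 0 to the right, while the Tfh list has 9 to the right and 5 to the left.

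Of 23 tissue residency genes 15 were lower and 4 higher in PSGL1lo cells of lung (all genes tested: 20.1% and 12.9%). In liver 8 were lower and 5 higher (all genes tested: 12.3% and 8.5%). The difference was called negative for 12 and positive for 1 (median -0.51), and 11 of the 12 held whichever library was left out. The list shares Icos, Nr4a1 and Ctla4 with the lists above. Itgae, which encodes the epithelium-binding integrin chain CD103, had 31.0 and 34.8 CPM in lung PSGL1lo and 92.3 and 102 CPM in lung PSGL1hi. In liver it had 30.6 and 30.4 CPM in PSGL1lo and 48.98 and 50.4 CPM in PSGL1hi (difference -0.86 ± 0.13, adjusted p = 0.00013). The PSGL1lo groups of both organs stood close to each other, and the PSGL1hi groups did not. Itga1, the collagen-binding integrin chain (-0.96 ± 0.16), Prdm1, the gene of Blimp-1, which represses Bcl6 (-0.88 ± 0.13), and Runx3, a residency-linked factor (-0.51 ± 0.10), were likewise lower in PSGL1lo cells of both organs and more so in lung. The retention marker gene Cd69 had a difference of -0.60 ± 0.13 (adjusted p = 0.0063), lost without lung PSGL1lo replicate 1 (-0.49) or lung PSGL1hi replicate 2 (-0.52). The difference for Cxcr6 did not pass (-0.25 ± 0.11, adjusted p = 0.21). The receptor activity-modifying proteins went apart, Ramp1 at 1.052 ± 0.18 and Ramp3 at -1.64 ± 0.21.

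S1pr1, the sphingosine-1-phosphate receptor by which cells leave tissue, was lower in PSGL1lo cells by -1.49 ± 0.09 in lung and -1.62 ± 0.09 in liver (difference 0.13 ± 0.13, adjusted p = 0.68). For its regulator Klf2 the difference was 0.23 ± 0.18 (adjusted p = 0.58), and it passed without lung PSGL1lo replicate 1 (0.52). A p that misses the threshold does not show that the effects were equal. S1pr4, which encodes another receptor of that lipid, was lower in PSGL1lo cells of both organs and more so in lung (difference -0.75 ± 0.14, adjusted p = 0.0012). In the whole circulation and homing list 6 of 17 members were called with a negative and 1 with a positive difference, and by sign alone 14 lay below 0 and 3 above 0. The 6 became 3 without lung PSGL1lo replicate 1, lung PSGL1hi replicate 2 or liver PSGL1hi replicate 2. Ccr7, the lymph node homing receptor gene, had 34.3 and 39.96 CPM in lung PSGL1lo and 36.5 and 38.9 CPM in lung PSGL1hi, which overlapped. The liver values were 8.33 and 7.83 CPM in PSGL1lo and 2.74 and 4.28 CPM in PSGL1hi (difference -1.21 ± 0.19, adjusted p = 0.00035). Ccr9, the gut-homing receptor gene, had 13.2 and 14.6 CPM in lung PSGL1lo against 40.3 and 46.3 CPM in lung PSGL1hi. In liver it had 40.8 and 35.9 CPM in PSGL1lo and 41.1 and 39.6 CPM in PSGL1hi (difference -1.57 ± 0.15, adjusted p = 9.2e-07). Lung PSGL1lo cells were the group that stood apart. Of 19 chemokine receptor genes 6 were called with a negative and 2 with a positive difference, and by sign alone 14 lay below 0 and 5 above 0. Cxcr4, the receptor of the retention chemokine CXCL12, was lower in lung PSGL1lo cells (-0.62 ± 0.07) and higher in liver PSGL1lo cells (0.46 ± 0.07). Among the ligands, Cxcl10, which attracts CXCR3-bearing cells, had 22.3 and 25.2 CPM in lung PSGL1lo, 12.9 and 14.5 CPM in lung PSGL1hi, 48.04 and 45.2 CPM in liver PSGL1lo and 7.68 and 8.48 CPM in liver PSGL1hi (difference -1.74 ± 0.18, adjusted p = 2e-06). It was higher in PSGL1lo cells of both organs and more so in liver.

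The leading positive differences included genes that PSGL1hi cells of lung hardly held. Atp2b2, a plasma membrane calcium pump gene, had 27.6 and 19.3 CPM in lung PSGL1lo and 1.95 and 2.04 CPM in lung PSGL1hi, but 47.4 and 52.2 CPM in liver PSGL1lo and 32.8 and 32.8 CPM in liver PSGL1hi (difference 2.95 ± 0.24, adjusted p = 4.2e-07). In CPM the gap was alike, 21.4 in lung and 17.0 in liver, so the ratio turned on the low level in lung PSGL1hi cells. Cacna1d, a voltage-gated calcium channel gene (2.14 ± 0.24), Tshz2, a zinc finger gene (2.08 ± 0.25), Tprg (1.78 ± 0.24), Ksr2 (1.95 ± 0.35) and the retroviral envelope gene Syna (2.16 ± 0.38) also had their lowest group mean in lung PSGL1hi. Nrgn, which encodes a calmodulin-binding protein, had 137 and 94.8 CPM in lung PSGL1lo, 21.3 and 17.4 CPM in lung PSGL1hi, 65.4 and 47.2 CPM in liver PSGL1lo and 35.8 and 39.9 CPM in liver PSGL1hi (difference 2.01 ± 0.21). Cd109, a protease-binding surface protein gene (2.01 ± 0.26), was higher in lung PSGL1lo cells (2.22 ± 0.18) and not called in liver (0.22 ± 0.19). Ccdc80, a matrix protein gene (1.84 ± 0.21), and Serpine2, a protease inhibitor gene (2.04 ± 0.27), completed this set with Itgax, described with the myeloid markers.

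Among the leading negative differences, that of Vps37b went with a high level in lung PSGL1hi cells. Vps37b, an endosomal sorting gene, had 281 and 282 CPM in lung PSGL1lo and 852 and 732 CPM in lung PSGL1hi, against 82.7 and 74.8 CPM in liver PSGL1lo and 79.5 and 81.5 CPM in liver PSGL1hi (difference -1.46 ± 0.12, adjusted p = 4.2e-07). The liver fractions overlapped. Others were low in lung PSGL1lo cells. Mmp9, a matrix protease gene, had 8.69 and 7.64 CPM in lung PSGL1lo, 25.4 and 19.3 CPM in lung PSGL1hi, 123 and 108 CPM in liver PSGL1lo and 104 and 105 CPM in liver PSGL1hi (difference -1.60 ± 0.17, adjusted p = 3.2e-06). Dtx1, a Notch target and ubiquitin ligase gene, was also lowest in lung PSGL1lo (-1.55 ± 0.20). The RNA-binding gene Raver2 (-1.44 ± 0.24) and the ribosomal protein gene Rps10 (-1.48 ± 0.24) were the remaining members. Rps10 reads can match near-identical copies, so its value is uncertain.

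Genes with opposite effects were further described with the spleen, whose libraries do not enter the difference. The genes with opposite signs numbered 37 (0.269% of those tested). Of these, 24 were lower in PSGL1lo cells of lung and higher in those of liver, and 13 the reverse. The count was 20 without liver PSGL1hi replicate 1, 24 without liver PSGL1hi replicate 2 and 73 without liver PSGL1lo replicate 2. In cGVHD spleen, where 15.8% of all genes were higher and 16.7% lower in PSGL1lo cells, 26 of the 37 were called with the sign they had in liver, 1 (Rn45s) with the sign they had in lung, and 10 were not called. Icos (0.69 ± 0.07 in spleen), Cxcr4 (0.57 ± 0.07) and Fosb (0.47 ± 0.13) were among the 26, as was Odc1, the ornithine decarboxylase gene (-0.26 in lung, 0.73 in liver and 0.79 in spleen). Tgif2, a transcriptional repressor gene of the TGF-beta pathway (-0.67, 0.70 and 0.49), and Birc3 (-0.44, 0.44 and 0.43) did the same. Coch, the cochlin gene, was higher in PSGL1lo cells of lung (0.61) and lower in those of liver (-0.89) and spleen (-1.29). Frmd4a (0.49 in lung and -0.71 in liver) and Gpld1 (0.58 and -0.46) were not called in spleen, and the Gpld1 difference was lost without lung PSGL1lo replicate 1 (0.72) or lung PSGL1hi replicate 2 (0.94). Over all 823 genes the spleen effect lay nearer to the liver effect for 637 and nearer to the lung effect for 186, or 22.6%. Over all genes tested it lay nearer to the lung effect for 43.4%. The 823 were picked for differing, mostly with the larger effect in lung, so a moderate spleen effect falls nearer to liver by that choice. These shares therefore cannot say which organ the spleen resembles. The spleen libraries belong to another library series than those of liver and lung, but each spleen effect was measured within its own series.

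**Figure D4:**
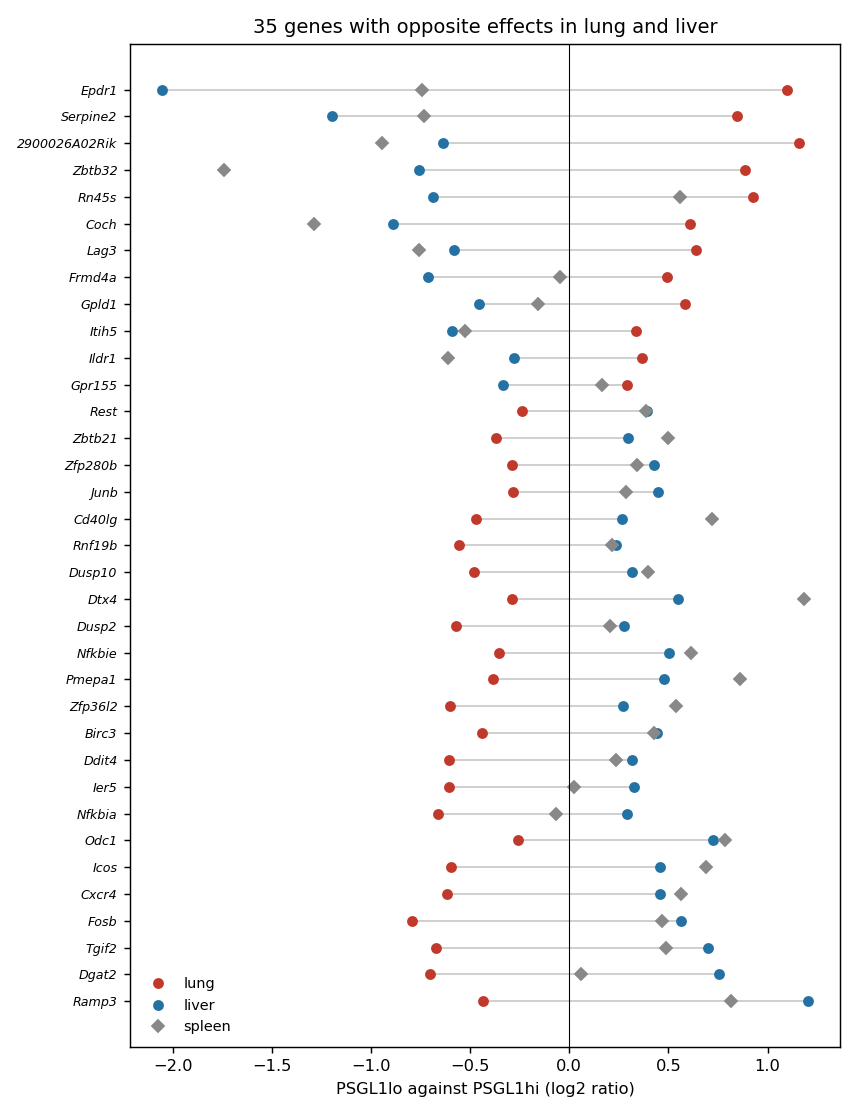
Log2 ratio of PSGL1lo to PSGL1hi in lung (red), liver (blue) and spleen (grey) for the 35 genes with opposite effects in lung and liver and at least 1 CPM in each of their groups, ordered by the difference of effects. Most grey points lie on the side of the blue ones, and Rn45s is called in spleen on the side of lung.

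The difference of effects equals the contrast of lung with liver in PSGL1lo cells minus that in PSGL1hi cells, so it can arise in either fraction. The organs differed for 39.9% of all genes in PSGL1lo and 38.4% in PSGL1hi cells. Of the 823 genes, 230 were called between organs in PSGL1lo cells only, 219 in PSGL1hi cells only, 299 in both with the same sign and 75 in both with opposite signs. Cell cycle genes had a median of -0.91 between lung and liver in PSGL1lo and -0.28 in PSGL1hi cells. For the NF-kappaB list the medians were 0.06 and 0.33, and for tissue residency genes 0.11 and 0.52. The cell cycle list thus stood apart more in PSGL1lo cells and the other two lists more in PSGL1hi cells.

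Markers of other cells differed between the organs. The 15 myeloid markers summed to 786 to 1190 CPM in lung PSGL1lo, 699 to 866 CPM in lung PSGL1hi, 32.4 to 116 CPM in liver PSGL1lo and 32.6 to 74.5 CPM in liver PSGL1hi, and most of the lung sum was Lyz2, the lysozyme gene. Of the 15, all tested, 1 was called by the difference of effects, with a positive value, while 9 lay above 0 and 6 below 0 by sign alone. The gene called was Adgre1, which encodes the macrophage marker F4/80 (2.12 ± 0.52, adjusted p = 0.015), lost without liver PSGL1lo replicate 2 (1.60) or liver PSGL1hi replicate 1 (1.54). Itgax, which encodes the integrin chain CD11c of dendritic cells and some activated T cells, had the largest difference of the genes named by size. It had 45.2 and 83.5 CPM in lung PSGL1lo, 74.3 and 95.3 CPM in lung PSGL1hi, 1.6 and 2.27 CPM in liver PSGL1lo and 22.3 and 24.5 CPM in liver PSGL1hi (difference 3.23 ± 0.32, adjusted p = 1.3e-06). The lung fractions overlapped and the liver fractions did not. Cx3cr1 (1.15 ± 0.20) and Ccr1 (1.77 ± 0.25), receptor genes of myeloid cells and effector T cells, were lower in liver PSGL1lo cells by ratios of -1.30 and -2.74, against -0.15, not called, and -0.97 in lung. Whether RNA of myeloid cells in the lung sorts takes part in these values was not tested, and fewer cells of a type and less RNA per cell cannot be told apart in bulk samples. CD8 T cell markers summed to 12.1 to 12.4 CPM in lung PSGL1lo, 28.5 to 30.6 CPM in lung PSGL1hi, 28.0 to 31.5 CPM in liver PSGL1lo and 141 to 142 CPM in liver PSGL1hi, so they were highest beside the highest Gzmb values, and their part in the cytotoxic genes was not tested. Of these 2 markers, Cd8b1 had a difference of 1.09 ± 0.17 (adjusted p = 0.00027), while Cd8a was not called, though both lay above 0. B and plasma cell, NK cell, hepatocyte, lung epithelium, endothelium and stroma, erythroid and platelet markers gave 0 calls by the difference of effects. By sign alone all 6 tested hepatocyte markers lay below 0, and 5 B and plasma cell markers lay above 0 and 2 below 0. For lung epithelium 3 lay above 0 and 4 below 0, and its sum was 13.4 to 97.4 CPM in lung PSGL1lo. Alb and the lung epithelium gene Scgb1a1 were near 0 CPM in the other organ, where a call is hardly possible. The 0 calls therefore cannot show that such RNA was shared evenly. Between the fractions, the 3 tested NK markers were lower in PSGL1lo cells of both lung and liver, as the cytotoxic genes were for 20 of 24 members in lung and 14 in liver, and 4 of 6 hepatocyte markers were higher in liver PSGL1lo cells. The part of either in the results was not tested. The NK marker Ncr1 was at 0.157 CPM or less, and the hepatocyte gene Alb averaged 0 and 0.022 CPM in lung PSGL1lo and PSGL1hi against 35.3 and 14.7 CPM in liver PSGL1lo and PSGL1hi.

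Because the difference is one of ratios, its sign was compared with that of the difference between gaps in CPM. The sign was the same for 791 of the 823 genes and turned for 32, of which 13 had a ratio difference above 0 and 19 below 0. Bcl6, Tcf7, Gzmb, Atf3 and Egr2 are among the 32. In 51 of the 823 genes at least 1 of the 4 groups averaged under 1 CPM, where the fitted size depends on the prior count.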

How the data were processed

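The values are raw counts of reads per gene as deposited, whole numbers with no scaling by the authors. Per the submitters' processing notes, TopHat2 2.0.8, HTSeq and the mm9 build were used. Annotation, strand setting and read filters are not given by any source used here. Overlapping, antisense and near-identical genes are therefore uncertain, among those named Gapdh, Hspa1a, Hspa1b, Rps10 and Rn45s.

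The fit used edgeR 4.0.16 (R 4.3.3) with filterByExpr defaults, TMM scaling and 1 mean per group over all 14 libraries, leaving 7 residual degrees of freedom. Each contrast had a 2-sided quasi-likelihood F test, and p-values were adjusted by Benjamini-Hochberg over the 13780 genes, with calls at an adjusted p under 0.05. Standard errors come from the F statistic. CPM are TMM-scaled. The fit was also run on simulated counts, with no result given here. Alternatives included DESeq2 1.42.0, limma 3.58.1, other scalings and each of 8 libraries left out.

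Genes were named as the 12 largest called differences per direction, up to 6 per direction with opposite effects, a fixed panel and up to 4 called members per list. The first 2 rules needed a mean of at least 10 CPM in 1 liver or lung group and 1 CPM in each. They left out symbols of the form Gm plus digits, ending in Rik, starting with LOC or like dates. The first also needed the same sign in all 8 fits that left out a library. The gene 2900026A02Rik (difference 1.80 ± 0.18, opposite signs in the organs) was thus not named by them. The contrast, panel and lists were chosen with earlier results of these data known. Genes named beside these, such as Tox2, Mki67, Odc1 and the marker genes, were chosen after their values were seen.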

Additional observations from a re-analysis of the deposited data

Results flagged for a closer look

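The difference between the PSGL1lo effect in lung and that in liver was itself tested, and 823 genes passed, of which 37 were called in both organs with opposite signs. The genes named from the 37 that were higher in PSGL1lo cells of lung and lower in those of liver were Serpine2 (difference of log2 ratios 2.04), Rn45s (1.62), Coch (1.5), Lag3 (1.22), Frmd4a (1.21) and Gpld1 (1.04). Those lower in lung and higher in liver were Ramp3 (-1.64), Tgif2 (-1.37), Fosb (-1.36), Cxcr4 (-1.07), Icos (-1.05) and Birc3 (-0.88). Each was singled out because its effects differ between the organs by that test.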

How the results depend on the processing

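The alternatives were of scaling, filter, tool, library set, replicate block and left-out library. Each of the 120 named genes was refitted under each of them that could give it a value. Of these gene-by-alternative values 1895 kept their side of the threshold, 136 lost a call, 9 gained one and 0 called ones reversed. Most named genes were picked because they were called, and those named by size also because their sign held without any 1 library. Few gains and 0 reversals thus follow in part from that choice. The number of genes with a difference was 107 against a 1.5-fold threshold. The fit on the 8 liver and lung libraries alone called 575 genes, 224 with a positive and 351 with a negative difference. The fit with no filter gave 59 genes with opposite signs. Leaving out 1 library gave 475 to 1320 differences, 157 to 612 positive and 315 to 708 negative ones, 20 to 73 with opposite signs, and 1552 to 3696 genes called in liver. The cause was not tested. Same-numbered libraries did not deviate together in every pair of groups (r from -0.268 to 0.261). The pair of lung PSGL1lo and lung PSGL1hi had the r of 0.261. In each liver and lung group the library names also give replicate 1 the letter A and replicate 2 the letter B, with no meaning given. These r values cannot show whether same-numbered libraries share an animal or a pool. With the replicate block 800 genes were called. With the liver numbers crossed, an alternative chosen after seeing the data, the block called 899. With 2 libraries a group, the spread rests on a model shared by all genes, and genes near 3 counts a library are limited by depth.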

Other observations

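Among 17 genes of the TGF-beta pathway 6 were called with a negative difference and 1 with a positive one, and by sign alone 13 lay below 0 and 4 above 0. Its feedback inhibitors Smad7 (-0.96 ± 0.15), Tgif1 (-0.89 ± 0.14) and Skil (-0.80 ± 0.12) were among the 6, and the 1 positive call was lost without lung PSGL1hi replicate 1 or either liver PSGL1hi library. In the integrated stress response and amino acid transport list 3 of 22 were called, all negative (18 below 0 and 4 above 0 by sign alone), namely Slc3a2, an amino acid transporter chain (-0.87 ± 0.11), Herpud1 (-0.71 ± 0.11) and the factor gene Atf4 (-0.61 ± 0.11). The 3 became 5 without liver PSGL1lo replicate 2.

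Of 20 cholesterol genes 3 were called, all negative (15 below 0 and 5 above 0 by sign alone), with Insig1, a feedback regulator of the pathway (-0.67 ± 0.12), among them, and 15 were lower in PSGL1lo cells of lung against 14 in those of liver. Of 24 glycolysis and hypoxia genes 4 were called, all negative (21 below 0 and 3 above 0 by sign alone), among them the hexokinase gene Hk2 (-0.74 ± 0.15) and the glucose transporter gene Slc2a1 (-0.63 ± 0.13). Gapdh was another (-0.74 ± 0.21), at group means of only 9.19 to 18.1 CPM in lung and liver. Its call did not hold in every fit that left out a library. The 4 became 2 without lung PSGL1hi replicate 1 or liver PSGL1hi replicate 1. Of 26 interferon-stimulated genes 2 were called, both negative (22 below 0 and 4 above 0 by sign alone), and neither held in every fit that left out a library. Of 15 Bcl-2 family genes only the survival gene Mcl1 was called (-0.62 ± 0.09). Over all genes tested 5.97% were called, so the calls among Bcl-2 family and interferon-stimulated genes were near that share. In the list of TNF family ligands and receptors 3 of 21 were called positive and 3 negative, among the positive ones Tnfsf4, the gene of the costimulatory OX40 ligand (1.21 ± 0.24, adjusted p = 0.0032, edgeR). The 3 positive calls became 5 without lung PSGL1lo replicate 2, and the 3 negative ones 5 without liver PSGL1lo replicate 2.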
